A study of Mus musculus with 6 samples.

Results

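A set of 8 genes for secreted factors of stressed heart and muscle was followed in control and Elac2 knockout mouse hearts. These genes were Gdf15, Fgf21, Fstl1, Fstl3, Metrnl, Il6, Angptl4 and Mstn. They were taken by gene name from the 51888 rows of the deposited tables, and all 8 were found. Elac2 encodes RNase Z, the enzyme that cuts the trailing end off newly made tRNAs, nuclear and mitochondrial alike. Whole hearts of 3 control mice (L/L, a loxP-flanked Elac2 exon without cre, also labelled Elac2 +/+) and 3 knockout mice (L/L with cre, also labelled Elac2 -/-) were sequenced. All mice had a C57BL/6 background. The cre came from a muscle creatine kinase promoter, which is active in striated muscle. No library had cre without the loxP-flanked exon, so cre and the loss of Elac2 cannot be told apart. The age and sex of the mice are not given in the labels used here.

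Cells with failing mitochondria can signal to the rest of the body through secreted proteins, often called mitokines. Gdf15 and Fgf21 are the best known of these, and both are target genes of the integrated stress response, in which the transcription factors Atf4 and Ddit3 act. Gdf15 lowers food intake through the receptor Gfral and its partner Ret, and Fgf21 acts on fibroblast growth factor receptors together with the co-receptor Klb. Fstl1 and Fstl3 are follistatin-like glycoproteins, of which Fstl3 binds and blocks activins and myostatin, and Mstn encodes myostatin, a brake on muscle growth. Il6 is a cytokine that signals through Il6ra and the shared receptor Il6st, Metrnl is a secreted protein of muscle and fat, and Angptl4 inhibits lipoprotein lipase.

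Promoter sequence is shown for Gdf15, Fgf21 and Il6, which had at most 5 reads over the 3 control libraries together and were higher in each knockout library than in any control. Each is the 250 bases before the RefSeq start on GRCm38.p6, written 5′ to 3′ on the strand of the gene, and none of these bases lie in an annotated UTR. Gdf15 is at chr8:70632457-70632706 on the minus strand, Fgf21 at chr7:45615491-45615740 on the minus strand and Il6 at chr5:30012864-30013113 on the plus strand. Capitals mark matches to any of 5 motifs described after the sequences.
Gdf15: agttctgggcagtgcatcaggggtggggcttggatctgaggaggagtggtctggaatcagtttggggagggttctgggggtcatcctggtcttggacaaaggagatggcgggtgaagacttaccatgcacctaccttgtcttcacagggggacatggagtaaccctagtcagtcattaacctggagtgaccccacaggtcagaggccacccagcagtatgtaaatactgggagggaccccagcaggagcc
Fgf21: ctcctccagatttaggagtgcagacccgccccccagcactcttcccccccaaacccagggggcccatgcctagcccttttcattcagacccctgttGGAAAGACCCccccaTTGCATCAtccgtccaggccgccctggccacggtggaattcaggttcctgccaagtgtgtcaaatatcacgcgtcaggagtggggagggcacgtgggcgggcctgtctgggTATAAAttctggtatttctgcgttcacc
Il6: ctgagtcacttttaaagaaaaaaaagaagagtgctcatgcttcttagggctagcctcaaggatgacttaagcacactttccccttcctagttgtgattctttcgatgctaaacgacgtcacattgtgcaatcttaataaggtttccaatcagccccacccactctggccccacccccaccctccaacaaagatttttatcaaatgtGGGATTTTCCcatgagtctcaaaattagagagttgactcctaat
Both strands were searched for TGATGNAA, a composite element of C/EBP and ATF factors, for the direct repeat of the hexamer that PPAR and RXR bind, with 1 base between the copies, for TGACGTCA, the cyclic AMP response element, for the NF-kB-type site, which starts with GGG and, after any 3 bases, ends with TTCC, and for TATAAA, known as the TATA box. Fgf21 held TTGCATCA, the reverse complement of TGATGNAA, from -139 to -132 relative to the start. Among 32817 promoter windows of this length, 3.45% held that motif. Fgf21 also held the NF-kB-type match GGAAAGACCC from -154 to -145 (4.65% of windows) and a TATA box from -28 to -23 (12.4% of windows). Il6 held the NF-kB-type match GGGATTTTCC from -44 to -35. These matches did not overlap each other, and none of the 5 motifs was found in the Gdf15 window or in that of a second Gdf15 start in the table. Among the other members with a window in the RefSeq table, Fstl3 and Mstn each held a TATAAA match only, and Fstl1 and Metrnl held no match. The match of Mstn was on the strand of the gene, and that of Fstl3, read as TTTATA, was on the opposite strand. The direct repeat and TGACGTCA were in none of the members' windows, against 0.0335% and 1.55% of all windows. A match describes the letters and does not show binding.

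The libraries held 12057962 to 14276410 counts in controls and 9850100 to 14461110 in knockouts, and mitochondrial-encoded reads took 49.3% to 61.1% of them in controls and 33.3% to 36.7% in knockouts. Levels are given as CPM, the usual depth-scaled count unit, with library sizes scaled by the TMM method, so that fold changes are relative to the bulk of tested genes. Elac2 fell by 1.27 on the log2 scale (SE 0.15, edgeR adjusted p = 2.12e-04). The tissue label fitted the markers, since 10 cardiomyocyte genes summed to 43820 to 44910 CPM in controls and 20610 to 23800 CPM in knockouts, with 6 of 10 lower and 0 higher. Skeletal muscle markers summed to 0.889 to 2.49 CPM over all libraries, and none of 10 had enough reads to be tested. In whole-heart RNA, fewer cells of a type and less RNA per cell cannot be told apart.

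Gdf15, Fstl3 and Fstl1 were higher in the knockout hearts by edgeR's quasi-likelihood test, at a Benjamini-Hochberg adjusted p under 0.05 over 14302 tested genes. Of those genes 36.5% were called, 18.7% higher and 17.8% lower. In the authors' deposited table, where 27.6% of 16267 genes have an adjusted p under 0.05 and 14.5% are higher, the same 3 members are higher. Metrnl and Angptl4 were tested and not called. Fgf21, Il6 and Mstn had too few reads for the test, whose filter asks for about 10 reads in 3 libraries, and are given by their reads. Gdf15 passed that filter through the knockout libraries alone, so the number called among the tested members has no weight of its own.

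**Figure D1:**
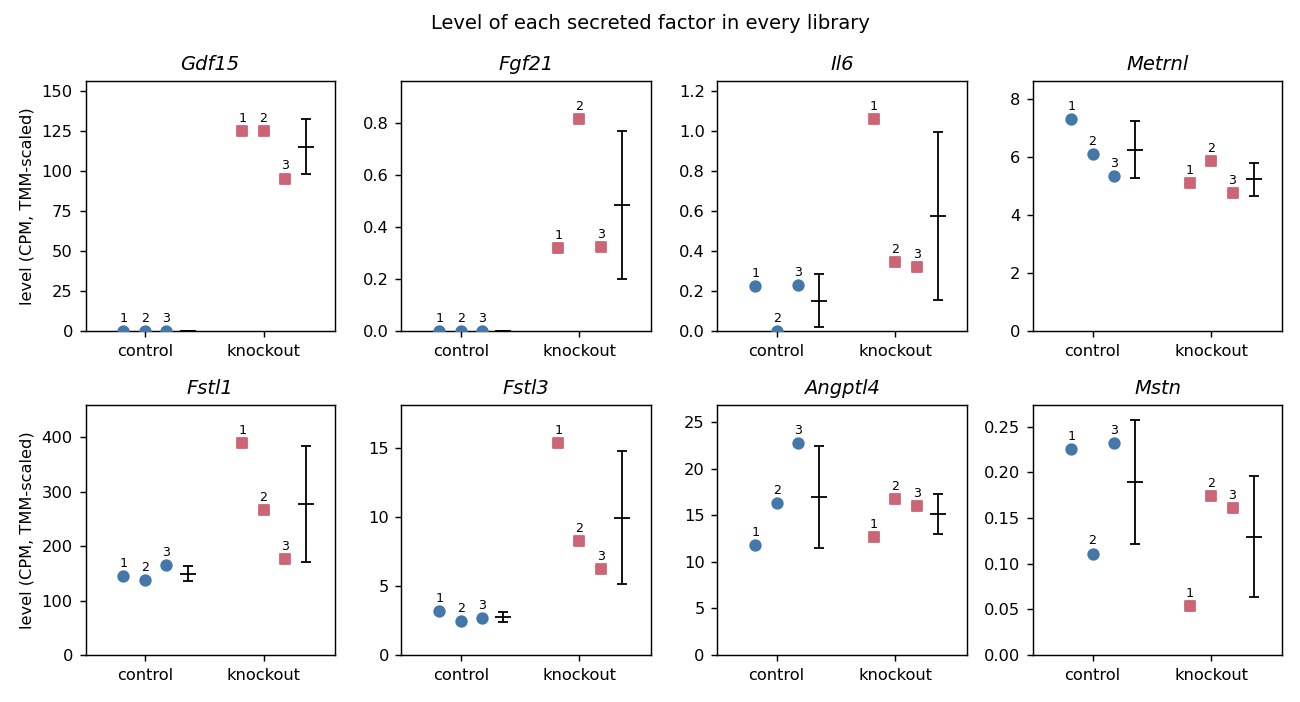
Level of each of the 8 genes in CPM (y axis, from 0, a different range in each panel) in the 3 control libraries (circles) and the 3 knockout libraries (squares). Numbers are replicate numbers, and the bars beside the points are mean ± SD. Gdf15 stands at 95.3 to 125 CPM in knockouts against at most 0.222 CPM in controls, and knockout 1 is the highest library for Fstl1, Fstl3 and Il6.

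Gdf15 (ENSMUSG00000038508.7, chromosome 8, 70629393 to 70632456, minus strand) went from nearly no reads to 1183 or more in every knockout library. The control libraries had 2, 2 and 0 reads, and the knockout libraries had 2356, 2152 and 1183 reads. In CPM these were 0.151, 0.222 and 0 against 125, 125 and 95.3. The groups were far apart, and the 3 knockout hearts were close to each other. The fitted log2 fold change was 9.70 (SE 0.31, edgeR adjusted p = 2.07e-07), with a 95% interval of 513-fold to 1342-fold. Because only 4 control reads stand under it, the ratio of the pooled levels, 907-fold, has a 95% counting interval of 354 to 3329. Such counting intervals leave out the differences between mice. The fitted interval is narrower than the counting interval, so it overstates the precision. The SE of the log2 fold change was 0.57 with limma-voom, and 0.74 with DESeq2 and in the authors' deposited table. Among the 14302 tested genes only 1, Vmn2r3, had a larger fitted rise, and that gene had no read in the controls.

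Fgf21 (ENSMUSG00000030827.5, chromosome 7, 45613886 to 45615490, minus strand) was read only in the knockout hearts. No control library had a read, and the knockout libraries had 6, 14 and 4 reads, or 0.318, 0.813 and 0.322 CPM. The groups did not overlap, and knockout 2 was the highest. Divided by a floor of 3 counts over the control group, 0.0971 CPM, the pooled knockout level of 0.495 CPM gave a ratio of 5.10. This is no lower bound, since the 95% counting interval of the ratio, which has no upper end, starts at 3.84. By exact permutation, two-sided, p was 0.1, below which 3 against 3 cannot go. In the authors' deposited table its log2 fold change is 4.77 (SE 1.56) with an unadjusted p of 2.28e-03 and no adjusted p. Without knockout 2 the difference of the mean levels went from 0.484 to 0.320 CPM. Per kilobase of exon the knockout level of Fgf21 was 0.509 CPM, against 62.1 CPM for Gdf15.

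The receptors and processing enzymes of both hormones were followed in the same libraries. Gfral, the receptor of Gdf15, had 0 reads in all 6 libraries, which allows up to 0.159 to 0.349 CPM in a library. Its partner Ret fell, from 11.6, 10.9 and 12.1 CPM in controls to 1.49, 0.987 and 1.77 CPM in knockouts, with no overlap (log2 fold change -3.04, SE 0.22, edgeR adjusted p = 1.43e-05). Among the proteases that can mature precursors of this family, Pcsk6 fell by 0.99, a call lost with library size alone, while Furin, Pcsk5, Pcsk7 and Mbtps1 were not called. Klb, which Fgf21 needs, had 6, 1 and 0 reads in controls and 1, 3 and 9 in knockouts, with overlapping groups. Of the 4 tested genes in the list of Fgf21 receptors, related hormones and protease, 1 was called: Fgfr3, with 11.2 ± 1.80 CPM in controls against 25.1 ± 7.89 CPM in the knockout hearts (SD, n = 3 each, fold 2.24, edgeR adjusted p = 3.21e-03). Over all tested genes 36.5% were called and 18.7% were higher, so 1 of 4 is no result about the list. Without knockout 1 a second gene of that list was called, lower, and with library size alone 3 were higher. Fgfr1 had a value of -0.31 and Fgfr2 of 0.62, neither called.

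The integrated stress response, which is known to act on Gdf15 and Fgf21, was followed through 21 genes. Among these 21 tested regulators and targets of the integrated stress response, 13 were higher and 2 lower, with a median log2 fold change of 1.21 against -0.01 over all tested genes. This list was chosen with the rise of such genes in these data known, so its count is no independent evidence. Without control 1, control 2, knockout 2 or knockout 3, 1 gene was lower, and with library size alone 17 were higher and 0 lower. Atf4, the central transcription factor, went from 32.5 to 38.3 CPM in controls to 231 to 284 CPM in knockouts, with a log2 fold change of 2.85. Ddit3, its partner, rose by 2.71 and was lowest in knockout 1, at 23.5 CPM against 51.2 and 52.5 CPM. Trib3, a feedback inhibitor of Atf4, rose by 6.08, and Asns, the asparagine synthetase, by 5.49 on the log2 scale. The 4 kinases that start the response, Eif2ak1 to Eif2ak4, were not called, with values from -0.31 to 0.27. The 2 lower genes were the mitochondrial protease gene Oma1 at -0.42 and the lipoprotein receptor gene Vldlr at -0.88, whose call was lost with library size alone (-0.19, adjusted p = 0.451). Of 15 genes of the unfolded protein response of the endoplasmic reticulum, 4 were higher, Ern1 by 0.94, Atf6 by 0.93, Dnajb9 by 0.70 and Xbp1 by 0.52, and none was lower. Among all tested genes 18.7% were higher. The count for this list was 2 without the second library of each group and 12 with library size alone. The chaperone Hspa5 had a value of 0.30 and was not called.

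Fstl3 (ENSMUSG00000020325.10, chromosome 10, 79777272 to 79782630, plus strand) rose in the knockout hearts. The controls had 42, 22 and 23 reads, or 3.16, 2.45 and 2.67 CPM, and the knockouts had 289, 142 and 77 reads, or 15.3, 8.25 and 6.20 CPM. The groups did not overlap, and knockout 1 was well above the other knockouts. The log2 fold change was 1.84 (SE 0.34, 95% interval 1.10 to 2.59, edgeR adjusted p = 2.31e-03). Its exons share 1157 bases with Prss57 on the opposite strand, which had 3 counts over the 6 libraries, and the sources used here do not say how reads of the shared stretch were assigned.

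Fstl1 (ENSMUSG00000022816.11, chromosome 16, 37776873 to 37836514, plus strand) was the member with the highest level in controls and rose less. Its levels were 145, 138 and 165 CPM in controls and 390, 267 and 176 CPM in knockouts. The groups did not overlap, but knockout 3 lay just above control 3. The log2 fold change was 0.90 (SE 0.24, 95% interval 0.36 to 1.44, edgeR adjusted p = 0.0165). The call was lost without control 1 (0.88, adjusted p = 0.0661), without control 2 (0.86, adjusted p = 0.0713) and without the second library of each group (0.87, adjusted p = 0.132). It was kept without knockout 1, the highest library, at 0.57 (adjusted p = 0.0173).

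Fstl1 is made mainly by fibroblasts and other stromal cells, so their markers are given beside it. None of 10 fibroblast markers was called, with log2 fold changes from -0.42 to 0.65 and a median of 0.22. Their summed level was 2489, 2278 and 1651 CPM in controls and 3033, 2470 and 2262 CPM in knockouts, so the groups overlapped and knockout 1 was again the highest library. In that library the collagen gene Col1a1 was at 331 CPM, against 85.6 and 54.8 CPM in the other knockouts. Pdgfra, a defining fibroblast marker, was at 41.9 to 51.6 CPM in controls and 41.7 to 47.8 CPM in knockouts. The part of fibroblast number or state in the rise of Fstl1 was not tested.

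**Figure D2:**
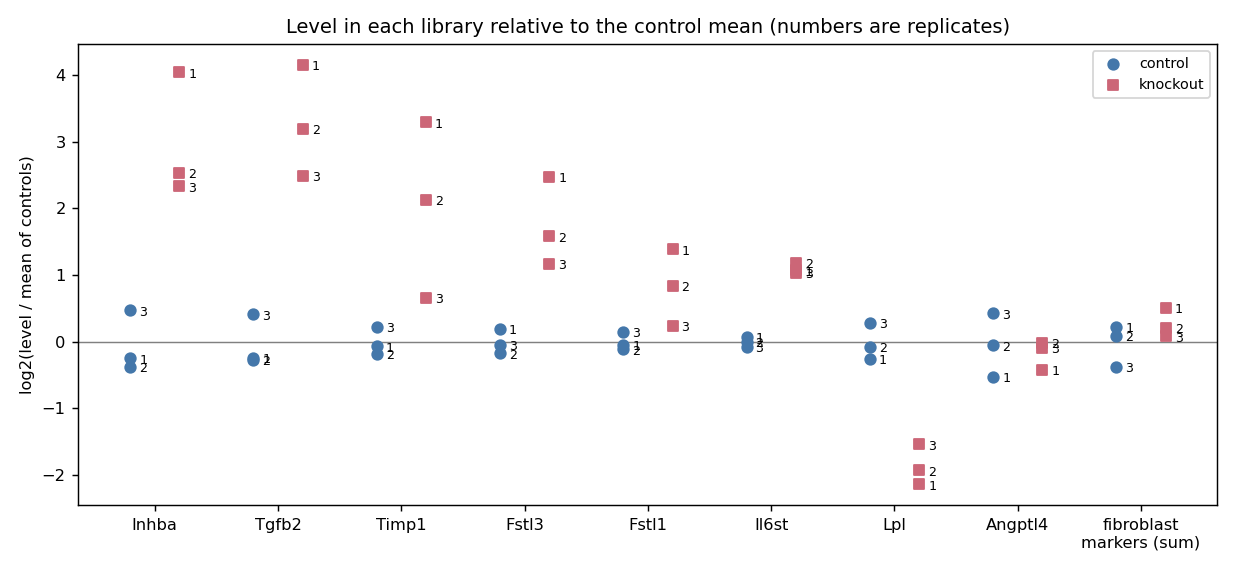
Log2 of the level in each library over the mean of the 3 controls (y axis) for 8 genes and for the summed fibroblast markers (x axis), with controls as circles, knockouts as squares and replicate numbers beside them. Inhba, Tgfb2, Timp1, Fstl3 and Fstl1 are highest in knockout 1, whereas Il6st at 338 to 376 CPM is close together in the knockouts. Lpl, at 417 to 633 CPM in the knockouts, is lowest in knockout 1.

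The activin and transforming growth factor ligands that Fstl3 and its relatives work among moved in both directions. Of 7 tested ligands 3 were higher and 1 was lower, against 18.7% higher and 17.8% lower among all tested genes. Inhba, which encodes the subunit of activin A, went from 2.18, 2.0 and 3.60 CPM in controls to 42.6, 15.0 and 13.0 CPM in knockouts (log2 fold change 3.21, SE 0.49, edgeR adjusted p = 8.61e-04), and was at 2.46 without knockout 1. Tgfb2 went from 5.12, 5.0 and 8.02 CPM to 107, 55.2 and 34 CPM (log2 fold change 3.46, SE 0.40, edgeR adjusted p = 2.05e-04). For both genes every knockout library was above every control, and knockout 1 was the highest, as for Fstl3. Tgfb3 rose by 0.63 with overlapping groups. Inha, whose product pairs with activin subunits to make inhibin, fell by 1.46. With a stricter filter of 50 reads in 3 libraries, 2 ligands were higher and 0 lower, and without control 1 the count was 2 and 2. Without control 2, knockout 1 or knockout 2 it was 2 and 1.

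Of 10 tested receptors and Smad genes 1 was higher and 2 lower, a share near the 36.5% called over all tested genes, with a median of 0.01. With library size alone 7 were higher and 0 lower. Smad3, which carries the activin and transforming growth factor signal to the nucleus, fell from 19.3 ± 0.905 CPM to 8.88 ± 1.74 CPM (SD, n = 3 each, log2 fold change -1.13). Acvr2b, a receptor of myostatin and activin, fell by 1.22, a call lost without the second library of each group. The calls of Smad3 and Acvr2b were also lost with library size alone. The inhibitory Smad6 had a call at 0.70 with overlapping groups, which was lost when any of control 2, control 3, knockout 1 or knockout 3 was left out. Among 8 tested antagonists and proteases, Ltbp1, which tethers latent ligand in the matrix, fell by 1.39, and Tll1, a protease that frees myostatin, rose by 1.0, a call lost without control 2 or control 3 and in the authors' deposited table. Without knockout 1 this list had 2 genes higher and 2 lower. Fst, the founding follistatin, had a value of 0.67 and was not called.

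Mstn (ENSMUSG00000026100.6, chromosome 1, 53061640 to 53068079, plus strand) was at the edge of detection in every heart. The controls had 3, 1 and 2 reads and the knockouts 1, 3 and 2 reads, or at most 0.232 CPM. The groups overlapped, and the pooled ratio of knockout to control was 0.637 with a 95% counting interval of 0.170 to 2.38. A change within that interval was not detectable at this depth.

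Il6 (ENSMUSG00000025746.11, chromosome 5, 30013114 to 30019981, plus strand) had few reads and 1 library carried most of them. The controls had 3, 0 and 2 reads, or 0.226, 0 and 0.232 CPM, and the knockouts had 20, 6 and 4 reads, or 1.06, 0.348 and 0.322 CPM. The groups did not overlap, yet knockouts 2 and 3 lay close above the controls. The pooled ratio was 3.82 with a 95% counting interval of 1.47 to 12.6, which leaves out the differences between mice. By exact permutation p was again 0.1. Without knockout 1 the difference of the mean levels went from 0.425 to 0.183 CPM. With no filter on low counts, where 11.8% of 26540 genes were called higher, edgeR called Il6 (log2 fold change 1.89, adjusted p = 0.0388), while the authors' deposited table gives 1.92 with an adjusted p = 0.186. Calls without the filter are not on the same footing as the main ones. There the edgeR adjusted p of Fstl1, for example, was 1.4e-08, against 0.0165 in the main fit.

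The cytokine family around Il6 had calls in both directions, as did all tested genes, of which 18.7% were higher and 17.8% lower. Of 3 tested ligands, Lif rose from 0.232 to 0.556 CPM in controls to 0.929 to 2.28 CPM in knockouts (log2 fold change 1.86, SE 0.48, edgeR adjusted p = 0.0139), a call lost without control 1 or control 3. Clcf1 had a call at 0.95, lost in 4 of the 6 fits that leave out 1 library, namely without control 1, control 2, control 3 or knockout 2, and also with DESeq2, with the replicate block and in the authors' deposited table. Ctf1, the cardiotrophin gene, fell by 2.03. Among 12 tested receptors and signal carriers 1 was higher and 3 were lower, a share near the 36.5% called over all tested genes. The counts were 1 and 1 without any single control, without knockout 2 and with the replicate block. Without knockout 1 they were 1 and 5, and without knockout 3 they were 2 and 1. With library size alone 6 were higher and 0 lower. Il6st, the receptor that all these cytokines share, rose from 174, 165 and 157 CPM to 347, 376 and 338 CPM, with the knockout hearts close together (log2 fold change 1.10, SE 0.12, edgeR adjusted p = 1.44e-04). Lifr, which pairs with it for Lif and cardiotrophin, fell to 0.447 of its control level, a call lost with library size alone. Il6ra, the part specific to Il6, was at 5.95 ± 0.928 CPM in controls against 4.10 ± 0.595 CPM (SD, n = 3 each) and was not called.

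Targets of Stat3, the factor that acts under these receptors, mostly did not pass the test. Of 11 tested genes 2 were higher, Serpina3n by 1.52 and Timp1 by 2.42, and 0 were lower. The share higher among all tested genes was 18.7%. Timp1 was at 18.5, 8.25 and 2.98 CPM in knockouts against 1.67 to 2.21 CPM in controls and fell to a log2 fold change of 1.61 without knockout 1. Both calls were lost without the second library of each group, and that of Timp1 also with limma-voom (adjusted p = 0.0537). The replicate block gave 4 genes higher, and library size alone 7. Socs3, the feedback inhibitor of the pathway, had a value of -0.64 and was not called. Tlr4, one of the receptors proposed for Fstl1, rose from 23.8 to 34.1 CPM in controls to 62.4 to 70.5 CPM in knockouts (log2 fold change 1.17), while Dip2a and Cd14 were not called. Of the macrophage markers, given beside these immune genes, 1 of 10 was higher, Lyz2 at 0.52, and the summed level was 208 to 228 CPM in controls and 220 to 263 CPM in knockouts. Neutrophil markers summed to at most 2.09 CPM. The part of immune cells in these changes was not tested.

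Angptl4 (ENSMUSG00000002289.15, chromosome 17, 33773750 to 33781830, minus strand) was not called. Its levels were 11.8, 16.3 and 22.8 CPM in controls and 12.7, 16.7 and 15.9 CPM in knockouts, so every knockout lay within the range of the controls. The log2 fold change was -0.16 (SE 0.22, 95% interval -0.65 to 0.34, edgeR adjusted p = 0.614). The sign turned without control 3 (0.11, adjusted p = 0.696), and with library size alone the gene was called higher at 0.57 (adjusted p = 0.0252), under the median of 0.68 of all tested genes at that scaling.

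The enzyme that Angptl4 inhibits, and many genes of the PPAR system, which is known to drive Angptl4, were lower. Lpl, lipoprotein lipase, fell from 1540, 1749 and 2235 CPM to 417, 484 and 633 CPM (log2 fold change -1.85, SE 0.21, edgeR adjusted p = 1.79e-04). Lmf1, which helps the lipase fold, fell by 0.96, a call lost with library size alone (-0.25, adjusted p = 0.310). Sel1l rose by 0.38, but no gene of that list was higher without control 1, control 3 or knockout 2. Gpihbp1, the anchor of the lipase on capillaries, was not called at -0.30. Of 8 PPAR regulators 5 were lower and 0 higher, with Ppara at -1.55, Ppargc1b at -1.22 and Ppargc1a at -1.96, and of 22 PPAR targets 13 were lower and 1, Acot2, was higher. Acadl at -1.15, Ucp3 at -2.22 and Pdk4 at -1.41 had the smallest adjusted p of these. Among all tested genes 17.8% were lower. Both lists were chosen with earlier results of these data known, so their counts are no independent evidence. The medians of the regulators and the targets were -0.93 and -0.88. The cardiomyocyte markers, of which 6 of 10 were lower, had a median of -0.83, and their part in the lower PPAR genes was not tested. The Ppargc1a call was lost without the second library of each group (adjusted p = 0.0513). With library size alone the regulators had 2 higher and 3 lower and the targets 3 higher and 2 lower, Acadl no longer being called, and without the second library of each group 1 higher and 8 lower. Among the other angiopoietin-like genes Angptl6 rose by 2.52 and Angptl7 by 1.76, and Angptl1 fell by 1.90, all at a level under 10 CPM, and the last 2 calls were lost without the second library of each group.

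Metrnl (ENSMUSG00000039208.15, chromosome 11, 121701544 to 121716306, plus strand) was not called either. It was at 7.30, 6.11 and 5.34 CPM in controls and at 5.09, 5.86 and 4.75 CPM in knockouts, with overlapping groups. The log2 fold change was -0.26 (SE 0.19, 95% interval -0.68 to 0.15, edgeR adjusted p = 0.294), and 0.42 with library size alone (adjusted p = 0.159). Its paralog Metrn, at -0.10, and Kit, reported as its receptor, at -0.26 were not called. Kitl, the classical ligand of Kit, was called at -0.49, a call lost without control 2 and with library size alone, where its value turned to 0.22.

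**Figure D3:**
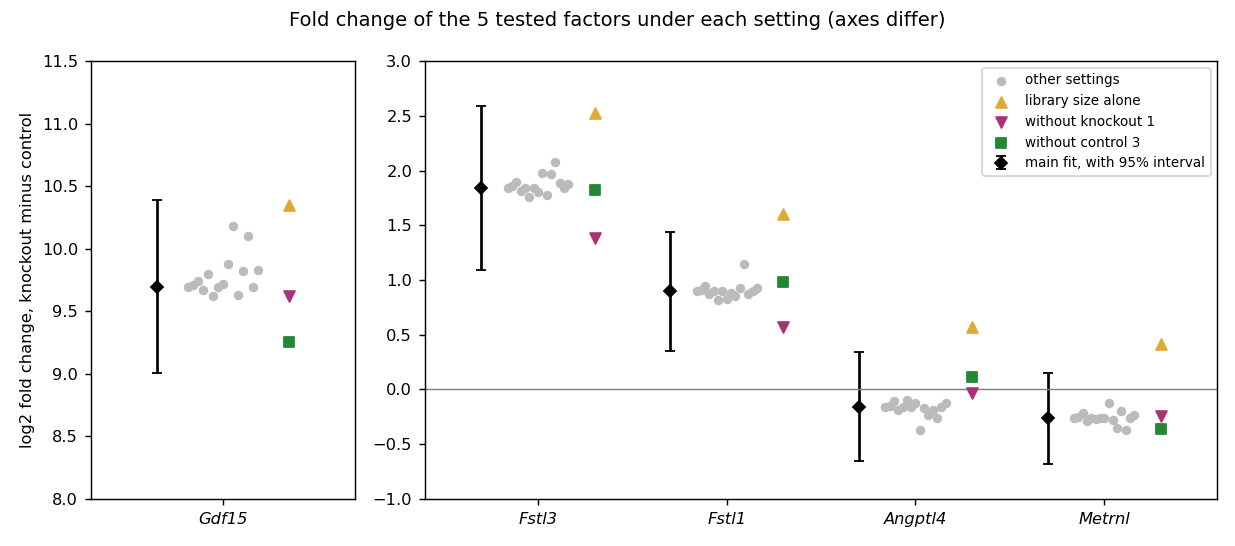
Log2 fold change, knockout minus control (y axis), of the 5 tested genes (x axis), with Gdf15 on an axis of its own that does not start at 0. Diamonds with bars are the fitted value and its 95% interval, and other symbols are the same value under other settings. Gdf15 and Fstl3 stay above 0 in each setting shown, Fstl1 drops to 0.57 without knockout 1, and Angptl4 and Metrnl turn positive with library size alone.

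The order of the members changed between the groups. Per kilobase of exon, Fstl1 led in controls with a mean of 30.4 CPM, above Angptl4 at 4.79, Metrnl at 3.94 and Fstl3 at 1.13 CPM. The ranges over the control libraries of Angptl4 and Metrnl overlapped. Mstn, Gdf15, Il6 and Fgf21 were all at or below 0.0701 CPM per kilobase. In knockouts Gdf15 came first with 62.1 CPM per kilobase and Fstl1 second with 56.5, but the ranges over libraries of these 2 overlapped. Angptl4, Fstl3 and Metrnl followed at 4.27, 4.06 and 3.30 CPM per kilobase, with the range of Fstl3 overlapping those of its neighbours Angptl4 and Metrnl, and all 3 above the next in order. Fgf21 and Il6 were at 0.509 and 0.238 CPM per kilobase with overlapping ranges, and Mstn was lowest at 0.0478.

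Of the 8 members, 5, Gdf15, Fgf21, Fstl1, Fstl3 and Il6, had every knockout library above every control, and none had every knockout library below. Of all tested genes 50.6% were separated, 26.2% upward and 24.5% downward, but Fgf21, Il6 and Mstn are not among the tested genes and Gdf15 is among them only through the knockouts, so the count and this share cover unlike sets. Metrnl, Angptl4 and Mstn overlapped.

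**Figure D4:**
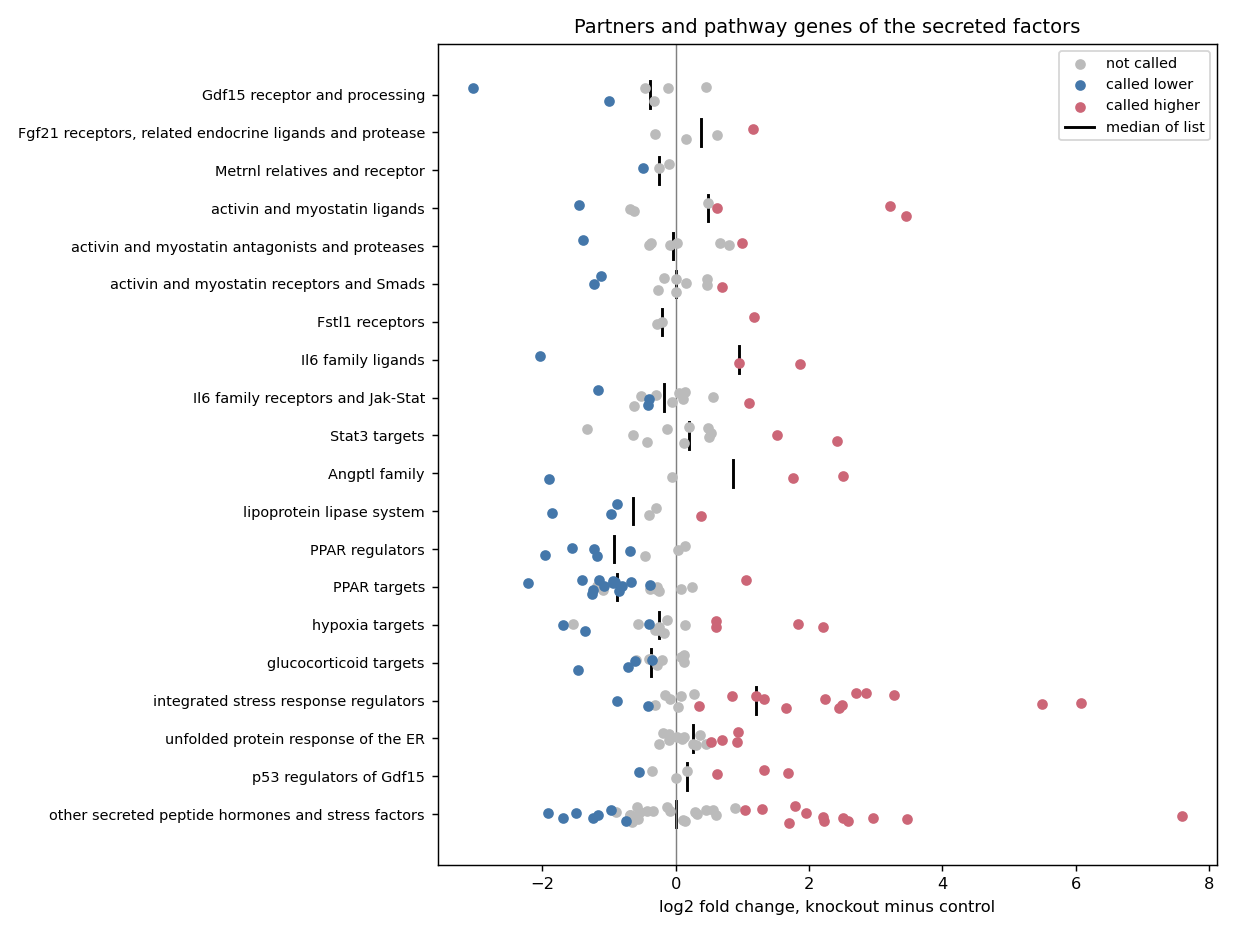
Log2 fold change, knockout minus control (x axis), of each tested gene in the 20 lists of partners and pathway genes (y axis), coloured by call, with a black bar at the median of each list. The list of integrated stress response regulators has a median of 1.21, and the lists of PPAR regulators and targets have medians of -0.93 and -0.88. Nog, the rightmost point, had no read in controls, so its fitted value is not a measured fold.

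Profiles most like each called member were sought by Euclidean distance of log2 CPM over the 6 libraries, centred on the controls, among 13490 genes of at least 1 CPM on average. For Gdf15 these were Vmn2r3, Mthfd2 and Trib3, at distances of 1.21, 5.29 and 5.50 against a profile length of 15.3, so only the first was close, and 1 of the 3 was kept with a smaller prior count of 0.5. For Fstl1 they were Hspa1l, Piezo2 and Spcs3, at 0.10 to 0.24, and for Fstl3 Tubb2a, Cyr61 and Rcan1, at 0.31 to 0.38. All 3 of each were kept with the smaller prior count. The compared points share the same 6 libraries and their depth.

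Other secreted hormones and stress factors of the heart went both ways. Of 40 tested genes 12 were higher and 7 lower, with a median of 0.01, against 18.7% higher and 17.8% lower among all tested genes. Nppb, the natriuretic peptide of stretched ventricle, was higher by 3.46, Lgals3, the galectin of injured tissue, by 2.97, and Nrg1, a growth factor for cardiomyocytes, by 2.21 on the log2 scale. In the knockouts Nppb was at 923, 710 and 468 CPM, so knockout 1 was the highest library here too.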

How the data were processed

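Total RNA of 6 hearts was sequenced as paired-end TruSeq libraries, per the labels. The tools named are featureCounts 1.5.1, HISAT2 2.0.5, DESeq2 1.16.1 and SAMtools 1.5, with mm10 as the build, per the submitters' processing notes. Their options and strand setting are not in the sources used here. For each gene the authors deposited raw counts in whole numbers, in 1 column per mouse, although the series design names 4 technical replicates of each. The authors' deposited table also holds a mean signal (counts divided by size factors), the log2 fold change and its error, a test score, and p-values before and after adjustment.

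Counts were tested with edgeR 4.0.16 in R 4.3.3 (quasi-likelihood, TMM, filterByExpr with a minimum count of 10, no block), with Benjamini-Hochberg adjustment over all tested genes and a threshold of 0.05. Intervals use the 95% level. The SE is the fold change divided by the square root of F. Counting intervals are exact binomial ones on pooled reads, and with floors of 3 counts they cover counting error only. Lengths and positions came from GENCODE M21 (GRCm38, the same build as mm10), which held 51596 of 51888 row identifiers, and promoters from RefSeq, which held 7 of 8 members. The script was tested on simulated data.

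The members and all 20 pathway lists were chosen with earlier results of these data known. The rule for named genes took the members, Elac2, up to 3 called genes of each list by adjusted p (or 1 gene where none was called), and the 3 nearest profiles of each called member. Others were chosen after their values were seen. Alternatives were library size alone, RLE scaling, no filter, TMM with mitochondrial-encoded genes removed, 50 counts in 3 libraries, DESeq2 1.42.0, limma-voom (limma 3.58.1), a robust fit, the replicate block, each library left out, both second libraries left out, a threshold of 0.01 and the authors' deposited table. Libraries of a group differed beyond sampling noise (chi-square over its degrees of freedom, 8.93 or more) and were counted as separate replicates.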

Additional observations from a re-analysis of the deposited data

How the results depend on the processing

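With 3 mice per group, Gdf15 and Fstl3 were called higher in each fit run, and Fstl1 in all but those named here. With each library left out in turn there were 3694 to 5837 genes called, 2 to 3 members called, 85 to 111 pathway genes called, and log2 fold changes of 9.26 to 10.18 for Gdf15, 1.38 to 2.08 for Fstl3, 0.57 to 1.14 for Fstl1, -0.37 to 0.11 for Angptl4 and -0.36 to -0.12 for Metrnl. Fstl1 lost its call without control 1, without control 2, without both second libraries (0.87, adjusted p = 0.132) and at a threshold of 0.01 (0.90). With both second libraries left out 2056 genes and 66 pathway genes were called, against 5215 and 101, with fewer samples tested. A threshold of 0.01 gave 3006 genes. With no filter 5 members were called higher, Fgf21 and Il6 being added, but there the edgeR adjusted p of Fstl1 also went from 0.0165 to 1.4e-08. Library size alone called 8645 genes, 8093 higher and 552 lower against 2671 and 2544, moved the median of all genes from -0.01 to 0.68, and turned Angptl4 to 0.57, Metrnl to 0.42 and the Mstn difference from -0.0603 to 0.0122 CPM. The replicate block called 4293 genes and 3 members, with Fstl1 at 0.83 (adjusted p = 0.0339). The labels do not say that numbers pair the mice, and the correlation of deviations within a number was -0.198, 0.085 and -0.087. Control 2 alone was closest to the knockout of its own number. Depth limits Fgf21, Il6 and Mstn, where 1 read equals 0.0531 to 0.116 CPM.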

Other observations

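Other lists hold genes of signals that are known to act on members of this set. Their counts stand against 18.7% of all tested genes called higher and 17.8% lower. These lists too were chosen with earlier results known, so the counts are no independent evidence. Of 15 tested hypoxia targets, Hmox1, the heme oxygenase gene, rose from 3.43 ± 1.45 to 15.6 ± 4.47 CPM (SD, n = 3 each) and the glucose transporter gene Slc2a1 from 7.28 ± 1.45 to 26.3 ± 9.17 CPM, while Egln1, a prolyl hydroxylase that marks hypoxia-inducible factors for breakdown, fell from 165 ± 10.3 to 64.1 ± 4.12 CPM. In all 4 were higher and 3 lower, or 4 and 7 without knockout 1 and 2 and 1 without both second libraries. Vegfa, a classical target, was lower by 0.40.

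Of 12 tested glucocorticoid targets 4 were lower and 0 higher, a share near the 36.5% called over all tested genes. The count was 2 lower without control 1, without control 2 or without knockout 2 and with the replicate block, and 6 lower without knockout 3. With library size alone the direction turned, with 3 higher and 1 lower. Klf15, a transcription factor of cardiac metabolism, fell from 36.8 ± 6.05 to 13.4 ± 2.04 CPM (SD, n = 3 each) and Zbtb16 by 0.71, a call lost with library size alone (-0.01, adjusted p = 0.967) and without both second libraries (-0.57, adjusted p = 0.105), whereas Fkbp5, at 0.09, and Tsc22d3, at 0.12, were not called. Among 7 genes of the p53 system, which can also raise Gdf15, Bax rose by 1.33, Mdm2 by 0.62 and Cdkn1a by 1.68 and Sesn1 fell by 0.54. The count was 2 higher and 0 lower without control 1 or without control 2, where the Cdkn1a call was lost. The Cdkn1a call was also lost with the robust edgeR fit (adjusted p = 0.0746). Trp53 itself had a value of 0.17 and was not called.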
